A study of Homo sapiens with 118 samples.

Results

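Fatty acid oxidation and ketogenesis were followed through 36 genes of the mitochondrial and peroxisomal pathways in HepaRG cells exposed to histone deacetylase inhibitors. Members were the rows of the count table whose name, without the probe number, equals 1 of these 36 symbols. They gave 39 probe rows of 22068 in all, because ACADL, ACAA1 and ETFDH each had 2 probes. Of the 39 probes, 33 (30 genes) passed the filter on low counts in all 8 chemicals, 3 passed it in some of them (HADH, BDH1 and ACOT2), and 3 passed it in none (ACADS, ACOT1 and ACOT12).

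Hepatocytes take up fatty acids, activate them to acyl-CoA esters and pass long chains into mitochondria through the carnitine shuttle. In the mitochondrial matrix an acyl-CoA dehydrogenase, a hydratase, a hydroxyacyl-CoA dehydrogenase and a thiolase shorten the chain in repeated rounds, while auxiliary isomerases and reductases deal with double bonds. Peroxisomes run a parallel pathway for very long and branched chains. The liver turns part of the acetyl-CoA into ketone bodies for other organs, and many of these genes are known targets of the nuclear receptor PPARA and its coactivator PPARGC1A.

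HepaRG is an established human hepatocellular line that differentiates into hepatocyte-like and biliary-like cells, and cryopreserved differentiated cells were used. The cells were exposed for 72 h, with the chemical renewed daily, to 1 of 8 inhibitors, each in 5 doses that ascend from C1 to C5. They were the hydroxamates vorinostat, trichostatin A, scriptaid and panobinostat, the benzamides tacedinaline and mocetinostat, the cyclic tetrapeptide apicidin and valproic acid. TempO-Seq libraries were made directly on lysates. In this assay, neighbouring oligonucleotide probes are joined on their target RNA and the ligated products are sequenced and counted. There were 118 libraries in 40 groups. Of these, 38 groups had 3 libraries, 1 from each of 3 batches of HepaRG cells, whereas panobinostat C3 and trichostatin A C4 had 2. The labels give the concentrations in µM as 0.041722 (C1) to 0.86 (C5) for apicidin, 0.177222 to 3.9 for mocetinostat, 0.001468 to 0.084 for panobinostat and 4.94 to 94.5 for scriptaid. They give 1.143333 to 44 for tacedinaline, 0.018811 to 1.5237 for trichostatin A and 0.404778 to 23.5 for vorinostat. Those of valproic acid read 100.478 to 3038, but the protocol states smaller numbers for the same groups, so the unit of these labels is not settled. Solvent-control libraries were not used here. Each chemical's own C1 libraries were therefore the reference, so that any change present at C1 itself was missed.

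Levels are given as normalised CPM (counts rescaled to a common library size by TMM factors), as mean ± SD over libraries. A probe was called when its change from C1 had an adjusted p below 0.05 (edgeR quasi-likelihood test, Benjamini-Hochberg over all probes tested in that chemical) and was at least 1.5-fold. Only called probes are described as having risen or fallen. Levels of different probes were not compared with each other, since probes differ in efficiency.

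Total counts lay between 1061359 and 5250260 per library and were lowest in vorinostat C5 (1061359 to 1879287, against 1785295 to 4134455 in vorinostat C1). The labels call the cells liver progenitor cells, but hepatocyte markers were abundant (ALB averaged 53157 counts per library). Of the biliary or progenitor-like markers, SOX9, SPP1 and PROM1 averaged 128, 84.6 and 2.31 counts per library. KRT19 and KRT7 had 2 probes each and averaged 95.9 and 3.33 counts per probe and library. EPCAM and CFTR never exceeded 2 and 13 counts. Over 12588 expressed probes, 9 libraries had a median correlation below 0.9 with their group mates. They were apicidin C4 replicate 1, mocetinostat C2 replicates 1 and 3, mocetinostat C3 replicate 1, all 3 of scriptaid C4, trichostatin A C1 replicate 3 and valproic acid C4 replicate 3.

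At the highest concentration, member probes were called falling in 7 of the 8 chemicals, with the fewest in valproic acid. In tacedinaline 24 of 33 member probes fell (against 20.1% of all probes tested) and 1 rose (against 18.7%). Mocetinostat had 21 of 33 falling (15.7%) and 1 rising (14.8%), and vorinostat had 15 of 33 falling (24.9%) and 3 rising (22.7%). In apicidin 14 of 34 fell (15.0%) and 2 rose (13.8%). Scriptaid gave 11 of 33 falling (17.0%) and 3 rising (12.8%). Panobinostat had 7 of 34 falling (9.46%) and none rising (6.77%). In valproic acid 4 of 35 fell (6.22%) and none rose (4.84%), counts too small to be set apart from these shares. In trichostatin A no member was called falling (0.0154% of all probes) or rising (0.0%), and 5 of 35 members had an unadjusted p below 0.05. DESeq2 also called no member in trichostatin A, and none rising in panobinostat or valproic acid. The panobinostat falls numbered 3 without replicate 1 and 4 without replicate 3, and the scriptaid falls 7 without replicate 2.

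**Figure D1:**
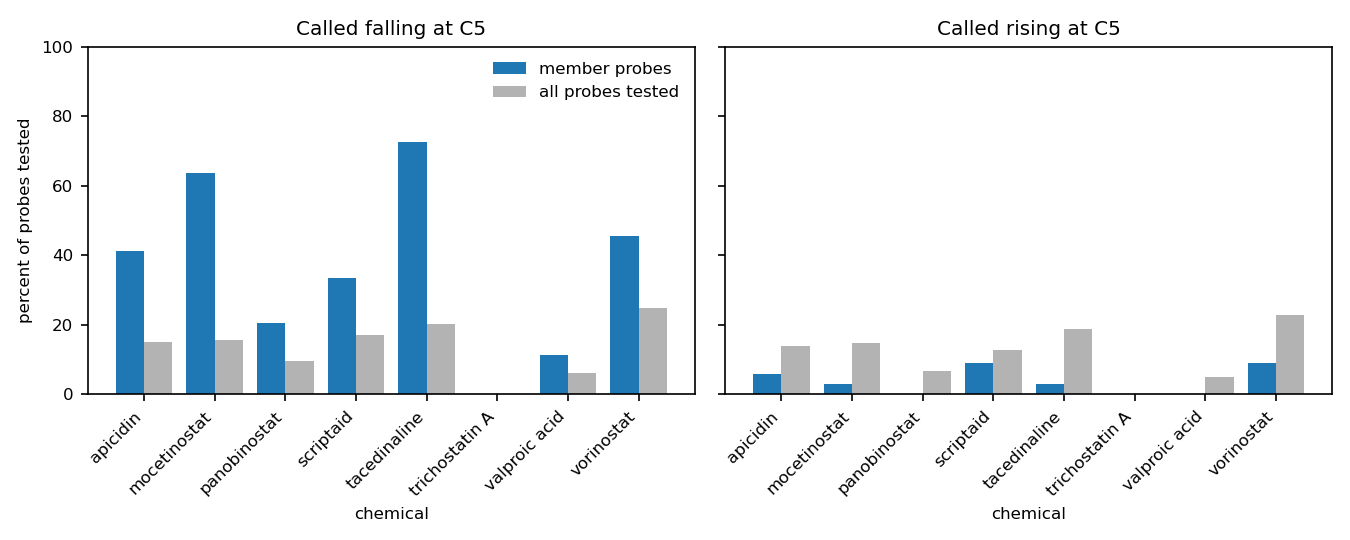
Percent of the member probes tested (blue bars) and of all probes tested (grey bars) that were called falling (left) or rising (right) at C5 against C1, by chemical on the horizontal axis. In tacedinaline 24 of 33 members fell against 20.1% of all probes, while the rising members (1 of 33) were below 18.7%.

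The median log2 change of the members at C5 was -1.25 in mocetinostat and -1.01 in tacedinaline, where the medians over all probes were 0.08 and 0.03. It was -0.56 in vorinostat, -0.49 in apicidin, -0.27 in scriptaid, -0.12 in valproic acid, -0.17 in panobinostat and 0.04 in trichostatin A, with the median over all probes within 0.02 of 0 in each of these. In all 96 falling calls and all 10 rising calls, the change from C1 to C5 had the same sign within each of the 3 HepaRG batches. The calls were made on these same libraries, so this is a description and no separate support. No member was called in opposite directions at C5 in different chemicals. Of the 36 probes tested somewhere, 25 fell at C5 in at least 1 chemical, 4 rose at C5 in at least 1, and 7 were not called at C5 in any, though some of these were called at C4.

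**Figure D2:**
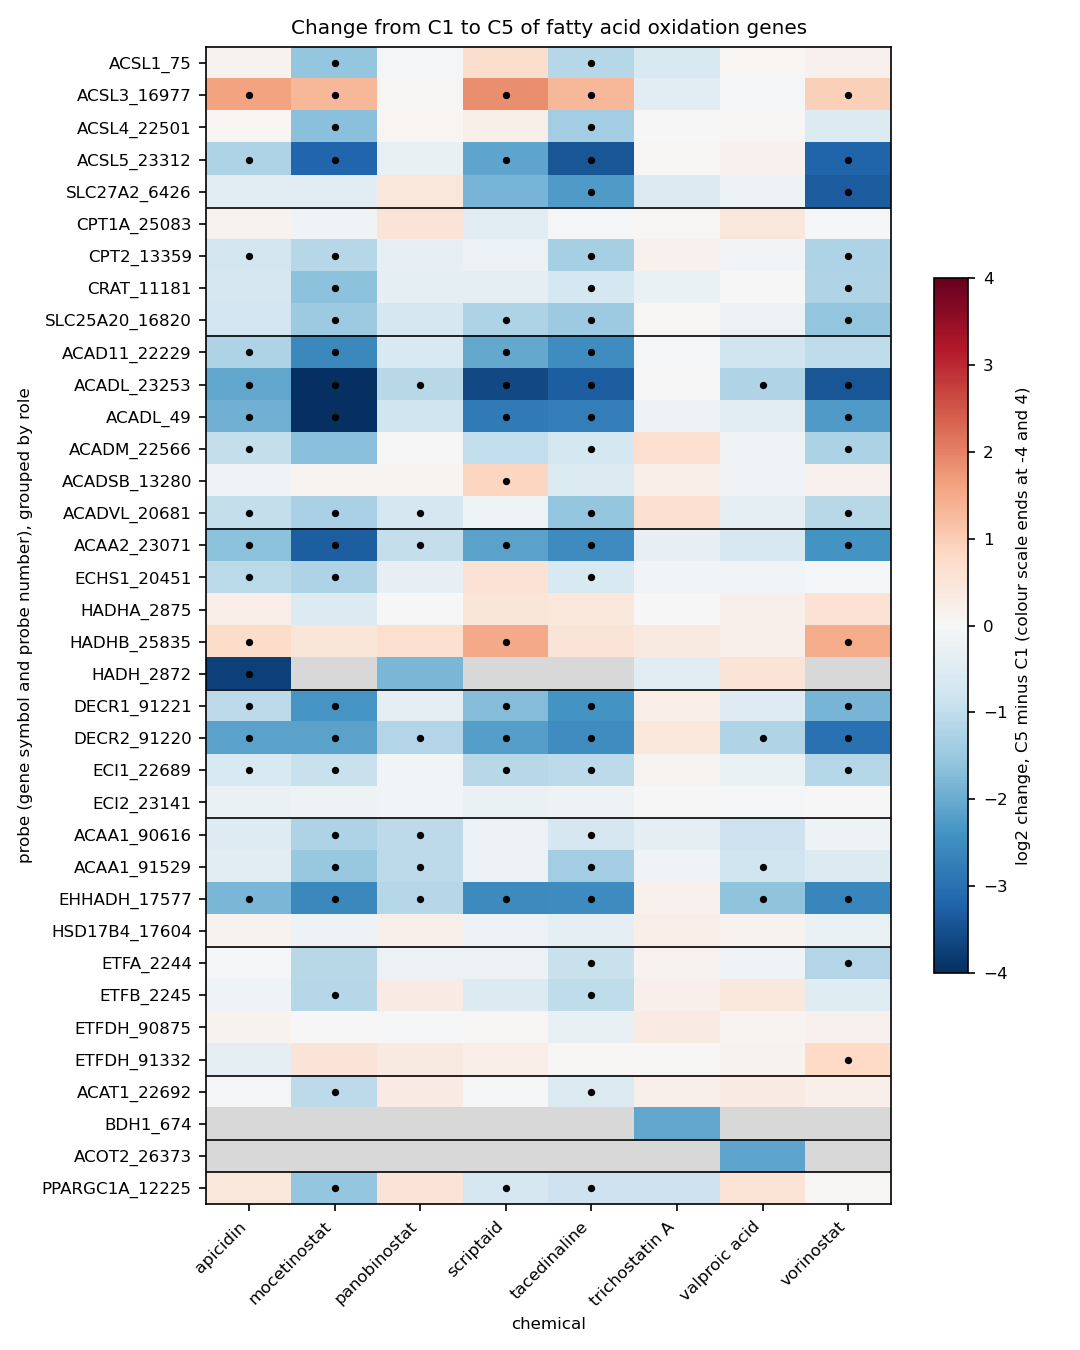
Fitted log2 change from C1 to C5 of each member probe (vertical axis, grouped by role with black lines between groups) in each chemical (horizontal axis); blue is lower and red higher at C5, black dots mark called probes and grey cells were not tested. Falls of EHHADH, DECR2 and ACADL_23253 run across 7 chemicals, ACSL3 is red in 5, and no probe is called in trichostatin A.

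Falls became more numerous from C3 to C5 in every chemical that had them. Calls over all probes, in either direction, grew as well. They grew from C3 to C4 in each of these chemicals, and from C4 to C5 in all but valproic acid (1540 and 1435 probes). The growth is therefore not particular to the members. At C3, C4 and C5 the falling members numbered 6, 10 and 14 in apicidin and 7, 19 and 21 in mocetinostat. They numbered 0, 1 and 7 in panobinostat, 0, 2 and 11 in scriptaid and 9, 16 and 24 in tacedinaline. There were 1, 3 and 4 in valproic acid, 2, 9 and 15 in vorinostat and none in trichostatin A. Below, falls and rises are counted together, for members and for all probes. At C2 edgeR called no member in any chemical, with between 0 and 12 members at an unadjusted p below 0.05, the 12 in mocetinostat, where DESeq2 called 3. At C3 the members called in either direction were 9 of 34 in apicidin (15.3% of all probes), 8 of 33 in mocetinostat (11.6%), 11 of 33 in tacedinaline (11.9%), 4 of 33 in vorinostat (7.06%) and 1 of 35 in valproic acid (1.13%). There were none at C3 in panobinostat (0.00763%), scriptaid (1.34%) or trichostatin A (0.0%), which had 1, 5 and 6 members at an unadjusted p below 0.05 and of which DESeq2 called 1 member, in scriptaid. At C4 the counts were 12 in apicidin (22.3%), 20 in mocetinostat (23.7%), 1 in panobinostat (2.56%), 3 in scriptaid (4.87%), 19 in tacedinaline (32.8%), 0 in trichostatin A (0.0%), 4 in valproic acid (11.9%) and 14 in vorinostat (32.3%). In trichostatin A 7 members had an unadjusted p below 0.05 at C4, and DESeq2 called none.

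The step from C4 to C5 was then compared. In vorinostat 11 of 33 members differed between C5 and C4 (16.7% of all probes), and in scriptaid 11 of 33 did (25.2%). Tacedinaline had 5 (2.15%) and panobinostat 2 (2.56%). No member differed between C5 and C4 in apicidin (0.315%), mocetinostat (0.0536%), trichostatin A (0.0%) or valproic acid (0.0%), where 5 or 6 members had an unadjusted p below 0.05. A fall was called at some concentration in 97 pairs of a member probe and a chemical. Of these, 25 were first called at C3, 37 at C4 and 35 at C5, and 94 were also called at every higher concentration. These counts are of members only and are not set beside those of all probes.

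Among the enzymes that activate fatty acids, ACSL5 and ACSL3 moved in opposite directions. Both are long-chain acyl-CoA synthetases, which couple fatty acids to coenzyme A. ACSL5 fell in 5 chemicals, with log2 changes from -3.42 to -1.22 (largest adjusted p = 7.14e-05), and was between -0.28 and 0.17 in panobinostat, trichostatin A and valproic acid. In tacedinaline the C1 libraries held 944, 985 and 835 CPM and the C5 libraries 76.7, 73.6 and 94.8 CPM. Every C5 library thus lay below every C1 library. The mean went from 921 ± 77.7 to 81.7 ± 11.5 CPM, a 10.7-fold fall (log2 change -3.42, SE 0.14, adjusted p = 4.57e-23).

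The course of ACSL5 is given for further chemicals, added after its values were seen. In scriptaid its libraries held 700, 847 and 507 CPM at C1 and 1313, 1149 and 1557 CPM at C4, before reaching 194, 185 and 73.4 CPM at C5. The C4 libraries were above all C1 libraries, but that change was not called (log2 change 1.01, SE 0.31, edgeR adjusted p = 0.0646), and the 3 scriptaid C4 libraries are among those that stood apart. The fall from C4 to C5 was called (log2 change -3.13, SE 0.33, edgeR adjusted p = 6.91e-06). In mocetinostat, by contrast, group means of ACSL5 were 1620.2 CPM at C1, 779.7 at C3, 337 at C4 and 169 at C5.

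ACSL3 rose in the same 5 chemicals, namely apicidin, mocetinostat, scriptaid, tacedinaline and vorinostat, with log2 changes from 0.94 to 1.86 (largest adjusted p = 0.00949). It was chosen for a full account after its values were seen. Its scriptaid libraries held 46.1, 37.0 and 42.2 CPM at C1 and 181, 137 and 115 CPM at C5. The C5 values did not overlap those of C1, and the C4 libraries were still at 31.6, 36.9 and 28.4 CPM. The change from C1 to C5 was 3.64-fold (41.7 ± 4.60 to 145 ± 33.7 CPM, SE 0.29 on the log2 scale, adjusted p = 0.000103). ACSL3 was already called at C3 in apicidin, mocetinostat and tacedinaline, with means of 99.3, 179 and 71.4 CPM. In panobinostat, trichostatin A and valproic acid its C5 log2 changes were 0.05, -0.41 and -0.06. Mocetinostat C3 replicate 1 and apicidin C4 replicate 1, which stood apart from their group mates, held the highest ACSL3 of their groups, 249 and 211 CPM. Without replicate 2 the mocetinostat rise of ACSL3 was no longer called (edgeR adjusted p = 0.147).

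The other activating enzymes changed in fewer chemicals. ACSL1 and ACSL4, further synthetases of this family, fell in mocetinostat and tacedinaline at C5, by 1.55 and 1.14 on the log2 scale for ACSL1 and by 1.68 and 1.38 for ACSL4. In mocetinostat ACSL4 went from 1612 to 474 CPM. C1 means of ACSL4 were 848 CPM in apicidin, 880 in tacedinaline and 446 to 524 in panobinostat, scriptaid, trichostatin A and valproic acid. Mocetinostat C1 also stood above the chemicals just named for ACSL1 (566 against 274 to 431 CPM) and ACSL5 (1620 against 685 to 921 CPM). The mocetinostat falls of these genes thus started from a high reference. In vorinostat the ACSL4 change was -0.54, or 1.45-fold, under the fold threshold (edgeR adjusted p = 0.00127). ACSL1 was higher than C1 at intermediate concentrations of apicidin (366 ± 32.7 to 603 ± 14.9 CPM at C3, edgeR adjusted p = 0.00662) and vorinostat (215 ± 30.6 to 409 ± 49.2 CPM at C4, edgeR adjusted p = 5.2e-06). SLC27A2, a transporter and synthetase for very long chains, fell in tacedinaline (9.16 to 1.76 CPM, log2 change -2.26, SE 0.63). In vorinostat no C5 library held more than 3 counts of SLC27A2, so its fall was at least 3.40-fold against a floor of 3 counts per library.

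The promoters of the 2 synthetases with opposite calls are shown as the 250 bases before the RefSeq start (GRCh38.p14), 5′ to 3′ on the gene's strand. Capitals mark, on either strand, AGGTCA, the half-site of many nuclear receptors, GGGCGG, the GC box, and CCAAT.
ACSL5 (chr10:112375018-112375267, plus strand, 1 of 2 listed starts): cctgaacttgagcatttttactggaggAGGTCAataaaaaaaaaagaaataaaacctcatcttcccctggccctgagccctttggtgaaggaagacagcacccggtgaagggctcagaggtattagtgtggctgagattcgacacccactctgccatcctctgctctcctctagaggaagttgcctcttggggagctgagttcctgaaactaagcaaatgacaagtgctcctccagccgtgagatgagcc
ACSL3 (chr2:222860786-222861035, plus strand): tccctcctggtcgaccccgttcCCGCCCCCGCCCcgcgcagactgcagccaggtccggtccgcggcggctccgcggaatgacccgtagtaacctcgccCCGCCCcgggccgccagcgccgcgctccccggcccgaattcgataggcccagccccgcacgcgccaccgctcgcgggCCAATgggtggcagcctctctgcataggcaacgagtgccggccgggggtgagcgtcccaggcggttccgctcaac
The ACSL5 start was picked from the 2 listed because its window holds AGGTCA. Its presence there was thus fixed by that choice and is no contrast with ACSL3. The ACSL5 window had 1 AGGTCA, no GC box and a GC content of 50.0%. The ACSL3 window had 3 GC boxes, 1 CCAAT and a GC content of 75.2%.

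RefSeq promoter windows of 300 bases (250 before to 50 after a start) were listed for 28 of the 36 members, in 41 windows. AGGTCA was in 1 of these 41, that of ACSL5, against 13.8% of all 35116 windows. The direct repeat AGGTCANAGGTCA, the consensus of PPAR elements, which contains AGGTCA, was in none of the 41 and in 0.0228% of all windows. GGGCGG was in 26 of 41 (45.0% of all) and CCAAT in 6 of 41 (34.6% of all). These are matches of letters in a short window and not binding sites.

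In the carnitine shuttle, CPT2 and SLC25A20 fell in 4 chemicals each while CPT1A was not called at C5 in any. SLC25A20 carries acylcarnitines across the inner mitochondrial membrane. In vorinostat its libraries held 120.1, 112 and 98.2 CPM at C1 and 40.0, 27.3 and 35.4 CPM at C5, without overlap. That was a 3.01-fold fall (109.9 ± 11.0 to 34.2 ± 6.43 CPM, SE 0.22 on the log2 scale, adjusted p = 2.98e-07). The called changes of SLC25A20, in mocetinostat, scriptaid, tacedinaline and vorinostat, ran from -1.59 to -1.24. CPT2, which re-forms acyl-CoA inside mitochondria, fell in apicidin, mocetinostat, tacedinaline and vorinostat (-1.33 to -0.74), for example from 209.6 ± 17.3 to 79.2 ± 8.94 CPM in tacedinaline. CRAT, the carnitine acetyltransferase, fell in mocetinostat, tacedinaline and vorinostat (-1.65 to -0.69).

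CPT1A is the outer-membrane carnitine palmitoyltransferase, the main control point of mitochondrial fatty acid entry. Its C5 log2 changes lay between -0.42 (scriptaid) and 0.51 (panobinostat), with adjusted p from 0.269 to 0.975. The 95% intervals ran from -0.95 to 0.69 in mocetinostat, from -0.61 to 0.52 in tacedinaline and from -0.62 to 0.51 in vorinostat. CPT1A held 32.8, 33.7 and 29.8 CPM in the C1 libraries of tacedinaline and 38.6, 20.5 and 30.1 CPM in those of C5, which overlapped. In vorinostat it held 25.7, 19.1 and 27.3 CPM at C1 and 20.4, 21.6 and 21.8 CPM at C5, again with overlap. CPT1A was called once at a lower concentration, rising from 29.3 ± 2.08 to 55.4 ± 24.3 CPM in valproic acid C4 (edgeR adjusted p = 0.022), where the library that stood apart, replicate 3, held 83.3 CPM and the others 38.6 and 44.3 CPM.

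Acyl-CoA dehydrogenases catalyse the first step of each round and fell in 24 of 42 tests over the 7 chemicals other than trichostatin A, in which 6.22% to 24.9% of all probes fell. Each probe counts as a test, so ACADL alone, with 2 probes, gave 7 and 5 of these 24 falls. ACADL, the long-chain enzyme, had 2 probes. ACADL_23253 fell in all 7 of these chemicals (-4.12 to -1.12, largest adjusted p = 0.00105), and ACADL_49 in 5 of them, all but panobinostat and valproic acid. In mocetinostat the libraries held 129, 145 and 129.8 CPM of ACADL_23253 at C1 and 83.7, 108 and 98.2 CPM at C2. They held 28.6, 42.6 and 29.8 CPM at C3, 7.55, 12.8 and 12.3 CPM at C4 and 6.70, 3.85 and 11.5 CPM at C5. The fall was called from C3 on. Neither C2 against C1 nor C5 against C4 was called, and the C4 and C5 libraries overlapped. The total fall was 17.4-fold (135 ± 8.76 to 7.35 ± 3.87 CPM, log2 change -4.12, SE 0.36, adjusted p = 3.5e-07). No mocetinostat C5 library held more than 3 counts of ACADL_49, which gave a fall of at least 21.8-fold from 19.0 ± 4.40 CPM at C1.

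ACADVL, the very-long-chain enzyme, fell in apicidin, mocetinostat, panobinostat, tacedinaline and vorinostat (-1.54 to -0.68). ACAD11, which acts on long and very long chains, fell in apicidin, mocetinostat, scriptaid and tacedinaline (-2.58 to -1.23). ACADM, the medium-chain enzyme, fell in apicidin, tacedinaline and vorinostat (-1.26 to -0.69). In mocetinostat the log2 change of ACADM was -1.68 with an edgeR adjusted p of 0.0502. ACADSB, which acts on branched short chains from isoleucine, was the exception of this group. It rose in scriptaid from 46.9 ± 5.90 to 80.7 ± 3.36 CPM (log2 change 0.86, SE 0.31, adjusted p = 0.042) with no C5 call in any other chemical (-0.55 to 0.25). In tacedinaline ACADSB was called lower at C4 (39.5 ± 3.32 to 22.1 ± 4.05 CPM, edgeR adjusted p = 0.0207). ACADS, the short-chain enzyme, was at 0 counts in 103 libraries and never above 6.

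Of the later mitochondrial enzymes, ACAA2 fell and HADHB rose. ACAA2, the thiolase that ends each round for medium and short chains, fell in 6 chemicals, all but trichostatin A and valproic acid (-3.30 to -0.95, largest adjusted p = 0.00702). Its mocetinostat libraries held 319.9, 238 and 493 CPM at C1, 105, 81.0 and 88.4 CPM at C3 and 29.9, 32.8 and 37.9 CPM at C5. From C3 on, every library was below every C1 library. The fall to C5 was 9.85-fold (350.4 ± 131 to 33.5 ± 4.04 CPM, log2 change -3.30, SE 0.28, adjusted p = 2.93e-07). ECHS1, the short-chain hydratase, fell in apicidin, mocetinostat and tacedinaline (-1.22 to -0.60). HADH, the short-chain hydroxyacyl-CoA dehydrogenase, had few counts (median 4 per library). It was called falling in apicidin, from 2.65 CPM at C1 to no more than 3 counts per library at C5, at least 3.61-fold.

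HADHA and HADHB encode the alpha and beta subunits of the mitochondrial trifunctional protein, which takes long chains through the last 3 steps of a round. HADHB, also chosen after its values were seen, rose in apicidin, scriptaid and vorinostat (0.74 to 1.51, largest adjusted p = 0.0214). In vorinostat HADHB held 30.2, 34.7 and 47.2 CPM at C1 and 118, 81.4 and 96.1 CPM at C5, without overlap, a 2.79-fold rise (SE 0.25 on the log2 scale, adjusted p = 8.78e-06). The HADHB calls in apicidin and scriptaid were lost when replicate 1 was left out (edgeR adjusted p = 0.0818 and 0.0754). In the other 5 chemicals the HADHB change was between 0.21 and 0.64 and not called. HADHA was not called at C5, with log2 changes from -0.55 to 0.58 (in vorinostat 58.6 ± 15.4 to 81.1 ± 7.00 CPM, 1.49-fold, adjusted p = 0.015). At C4 both subunits were called rising in tacedinaline (HADHA 0.68 and HADHB 0.75 on the log2 scale) and in vorinostat (0.80 and 0.87).

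The starts of the 2 genes have 306 bases between them and lie on opposite strands of chromosome 2, HADHA at 26244632 on the minus strand and HADHB at 26244939 on the plus strand (RefSeq, GRCh38.p14). The stretch between them, here the 250 bases before the HADHB start, is shown because it lies between the starts of both subunits. Capitals mark the 2 GC boxes (GGGCGG, here on the reverse strand).
HADHB (chr2:26244689-26244938, plus strand): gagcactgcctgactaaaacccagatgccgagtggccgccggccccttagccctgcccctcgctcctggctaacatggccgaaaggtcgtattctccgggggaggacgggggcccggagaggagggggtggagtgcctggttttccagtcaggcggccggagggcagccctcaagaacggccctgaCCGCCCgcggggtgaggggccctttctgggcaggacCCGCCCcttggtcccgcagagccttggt
It held neither AGGTCA nor CCAAT, and its GC content was 69.2%.

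Auxiliary enzymes for unsaturated chains fell in 17 of 28 tests over the 7 chemicals, beside the same 6.22% to 24.9% of all probes. DECR2, the peroxisomal dienoyl-CoA reductase, fell in all 7 (-2.99 to -1.18, largest adjusted p = 0.000238). In vorinostat DECR2 held 146, 162 and 135 CPM at C1, 76.3, 53.4 and 97.0 CPM at C3, 21.97, 28.3 and 31.4 CPM at C4 and 29.4, 16.9 and 7.66 CPM at C5. All C3 to C5 libraries lay below the C1 libraries. The fall to C5 was 7.92-fold (148 ± 13.7 to 18.0 ± 10.9 CPM, SE 0.27 on the log2 scale, adjusted p = 6.54e-11). DECR1, its mitochondrial counterpart, fell in apicidin, mocetinostat, scriptaid, tacedinaline and vorinostat (-2.40 to -1.04), for example from 486 ± 62.6 to 86.6 ± 18.5 CPM in tacedinaline. ECI1, a mitochondrial enoyl-CoA isomerase, fell in the same 5 chemicals (-1.15 to -0.61). ECI2, the other isomerase, was not called in any, with changes from -0.27 to 0.03 and an adjusted p of at least 0.231.

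Among peroxisomal enzymes, EHHADH fell in all 7 chemicals (-2.62 to -1.13, largest adjusted p = 7.85e-05). EHHADH encodes the bifunctional hydratase and dehydrogenase, a known PPARA target. In vorinostat the libraries held 410, 455 and 314 CPM at C1, 258, 202 and 225 CPM at C3 and 61.2, 67.8 and 48.9 CPM at C5, with no overlap from C3 on. The fall was 6.13-fold (393 ± 72.2 to 59.3 ± 9.56 CPM, SE 0.18 on the log2 scale, adjusted p = 5.76e-14). EHHADH was called from C3 in apicidin, mocetinostat, tacedinaline, valproic acid and vorinostat, from C4 in scriptaid and at C5 in panobinostat. In valproic acid it went from 515, 513 and 499 CPM at C1 to 163, 182 and 152 CPM at C5, a 3.04-fold fall and 1 of only 4 members called there.

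**Figure D3:**
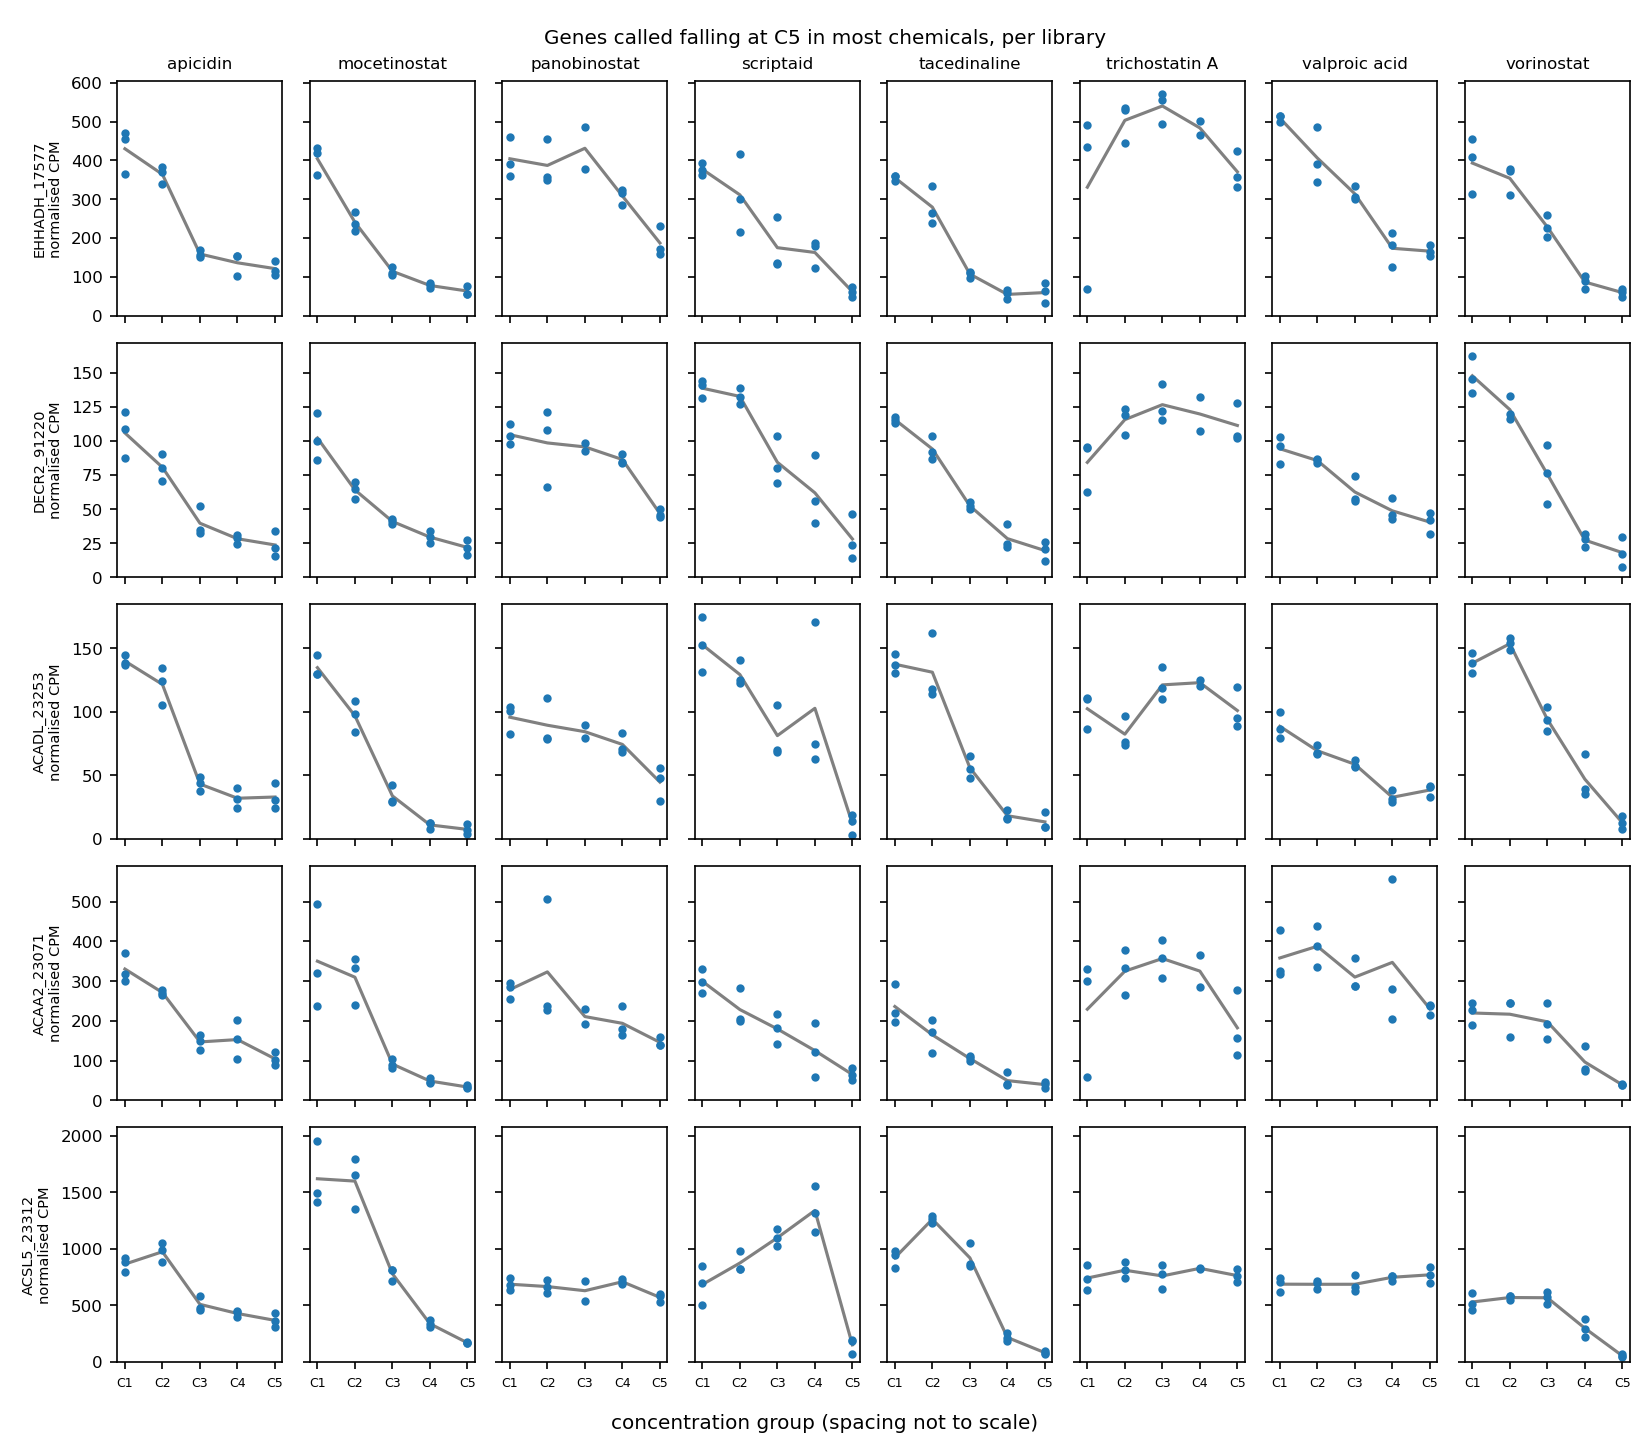
Normalised CPM (vertical axes, from 0) of EHHADH, DECR2, ACADL_23253, ACAA2 and ACSL5 at C1 to C5 (horizontal axis, spacing not to scale) in each chemical; points are libraries and grey lines join group means. EHHADH, DECR2 and ACADL_23253 go down in 7 chemicals, trichostatin A C1 has 1 low EHHADH library at 68.0 CPM, and ACSL5 in scriptaid is highest at C4.

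The 2 probes of ACAA1, the peroxisomal thiolase, had the same call in 7 of 8 chemicals. Both fell in mocetinostat, panobinostat and tacedinaline. In valproic acid ACAA1_91529 was called (-0.81, adjusted p = 0.0326) and ACAA1_90616 was not (-0.82, adjusted p = 0.0931). HSD17B4, the bifunctional enzyme for branched chains, was not called at C5, with changes from -0.39 to 0.28.

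The electron transfer flavoprotein, which takes electrons from the acyl-CoA dehydrogenases to the respiratory chain, changed in few chemicals. ETFB fell in mocetinostat and tacedinaline, by 1.15 and 1.01 on the log2 scale. Its mocetinostat libraries held 97.8, 80.4 and 105 CPM at C1 and 43.5, 27.7 and 48.8 CPM at C5, without overlap (2.22-fold, SE 0.24 on the log2 scale, adjusted p = 0.00164). ETFA fell in tacedinaline and vorinostat. Of the 2 probes for ETFDH, which passes the electrons on to ubiquinone, ETFDH_91332 rose in vorinostat (73.7 ± 0.8997 to 119 ± 30.4 CPM, adjusted p = 0.000724) while ETFDH_90875 was 165 ± 6.38 and 173 ± 33.0 CPM (adjusted p = 0.361), so the probes of ETFDH disagreed there.

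Ketone body and thioesterase genes were less well measured. ACAT1, the mitochondrial acetoacetyl-CoA thiolase, fell in mocetinostat and tacedinaline (-1.05 and -0.59). In mocetinostat ACAT1 held 231, 201 and 227 CPM at C1 and 89.6, 113 and 98.1 CPM at C5, with no overlap (2.07-fold, SE 0.20 on the log2 scale, adjusted p = 0.000681). In vorinostat ACAT1 was higher than C1 at C3 and at C4 (143 ± 15.4 to 229 ± 6.56 CPM at C4, edgeR adjusted p = 0.000235) but not called at C5. BDH1, which interconverts acetoacetate and hydroxybutyrate, had a median of 1 count per library and was tested only in trichostatin A. The thioesterases ACOT1 and ACOT12 never exceeded 7 and 2 counts, and ACOT2 had a median of 2. ACOT1 and ACOT2 are near-identical copies, so their probes may share targets.

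PPARGC1A, the transcriptional coactivator of mitochondrial and gluconeogenic genes, did not go one way with concentration. It was called higher than C1 at C3 or C4 in 4 chemicals, and in scriptaid and vorinostat it was then called lower at C5 than at C4. In vorinostat the libraries held 67.6, 66.5 and 53.4 CPM at C1, 133, 125 and 77.2 CPM at C3, 203, 207 and 166 CPM at C4 and 79.2, 58.4 and 44.2 CPM at C5. The C4 values lay above those of C1, and the C5 values overlapped with those of C1. PPARGC1A rose 3.17-fold from C1 to C4 (log2 change 1.67, SE 0.21, edgeR adjusted p = 1.23e-07) and fell 3.06-fold from C4 to C5 (SE 0.22 on the log2 scale, edgeR adjusted p = 1.52e-06). Scriptaid gave the same order, from 102 ± 10.5 CPM at C1 to 186 ± 25.2 at C4 and 61.2 ± 16.8 at C5, called for C4 against C1 (edgeR adjusted p = 0.0396) and for C5 against C4 (edgeR adjusted p = 0.000239). The scriptaid C4 libraries are among those that stood apart. The fall from C1 to C5 in scriptaid (log2 change -0.67, SE 0.25, edgeR adjusted p = 0.0467) was not called once any 1 replicate was left out.

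In tacedinaline PPARGC1A was called higher at C3 (112 ± 15.9 to 169 ± 11.8 CPM, edgeR adjusted p = 0.0105) and lower at C5 (59.7 ± 5.34 CPM, edgeR adjusted p = 0.000331). In apicidin it was called higher at C3 and C4 (224 ± 11.0 and 244 ± 34.3 CPM, from 144 ± 22.7 at C1), and C5 did not differ from C4 beyond the spread (edgeR adjusted p = 0.569). In mocetinostat PPARGC1A fell without a called rise before. The libraries held 135, 145 and 132 CPM at C1, 183, 174 and 125 CPM at C2, 130.0, 148 and 118 CPM at C3, 54.4, 68.3 and 66.9 CPM at C4 and 48.7, 46.4 and 38.5 CPM at C5. C4 and C5 did not overlap with C1 (2.90-fold fall to C5, SE 0.22 on the log2 scale, adjusted p = 7.13e-05). In panobinostat and valproic acid the C5 values of PPARGC1A were 162 ± 13.0 and 173 ± 9.52 CPM, against 111 ± 14.7 and 118 ± 13.7 at C1. These changes of 1.44-fold and 1.47-fold were under the fold threshold (edgeR adjusted p = 0.0383 and 0.0201).

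**Figure D4:**
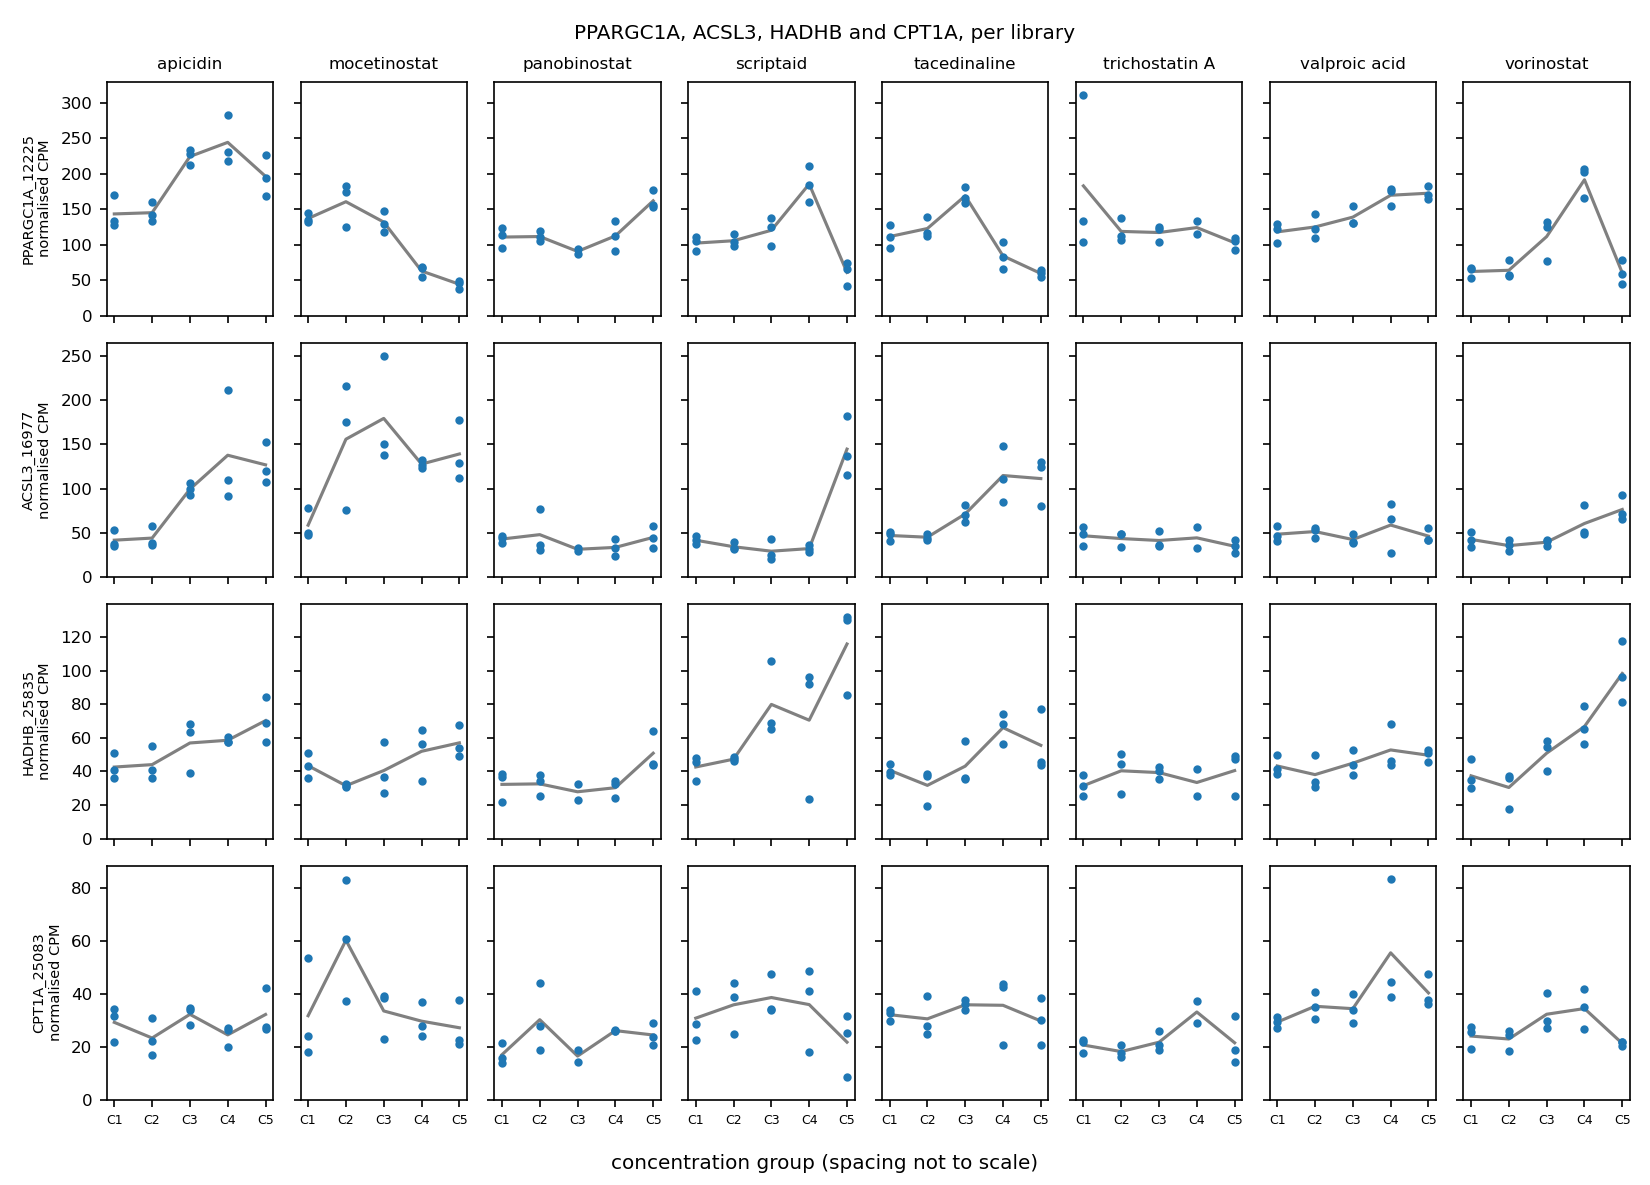
Normalised CPM (vertical axes, from 0) of PPARGC1A, ACSL3, HADHB and CPT1A at C1 to C5 (horizontal axis, spacing not to scale) in each chemical; points are libraries and grey lines join group means. PPARGC1A peaks at C4 in vorinostat and scriptaid and at C3 in tacedinaline, ACSL3 is higher at C5 than at C1 in 5 chemicals, and the CPT1A libraries of C1 and C5 overlap in 7 chemicals but not in valproic acid.

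The C5 change was compared between chemicals in 1 model of all 118 libraries. It differed between the 8 chemicals in 24 of 36 member probes tested (F test, adjusted p below 0.05), against 30.3% of all probes. Without trichostatin A it still differed in 19 of 36, against 21.2% of all probes. ACSL5 (adjusted p = 2.21e-31), DECR1 (3.32e-19), ACADL_23253 (1.69e-18), ACSL4 (3.35e-14), DECR2 (6.54e-13) and PPARGC1A (1.16e-11) had the lowest adjusted p. For ACSL4 and ACSL5, the high C1 means of mocetinostat enter this comparison. No difference was called for CPT1A (adjusted p = 0.53), ECI2 (0.827), HADHA (0.0962), HADHB (0.0674) or HSD17B4 (0.145). Concentrations were not matched between the chemicals, so these differences are between the concentration ranges used and not between compounds at equal dose. The labels also put scriptaid, tacedinaline and vorinostat on plate E (1061359 to 4656290 counts per library) and the other 5 chemicals on plate H (2819227 to 5250260), so between chemicals on different plates, chemical and plate cannot be told apart.

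Placed side by side by structure, the benzamides mocetinostat and tacedinaline had 21 and 24 member probes falling at C5, where 15.7% and 20.1% of all probes fell. The hydroxamates panobinostat, scriptaid, trichostatin A and vorinostat had 7, 11, 0 and 15, beside 9.46%, 17.0%, 0.0154% and 24.9% of all probes. The cyclic tetrapeptide apicidin had 14, where 15.0% of all probes fell, and the branched fatty acid valproic acid had 4, where 6.22% did. Since doses differed, no pair of compounds was compared.

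Genes of the same pathways outside the 36 also had more falls than rises. Of 40 to 47 probes tested per chemical on a list of other pathway genes, 6 to 22 fell and 2 to 6 rose in the 7 chemicals with falls, 106 falls and 33 rises in 306 tests. Falls were thus 34.6% of tests, where 6.22% to 24.9% of all probes fell, and rises 10.8%, within the 4.84% to 22.7% of all probes that rose. The members themselves had 96 falls and 10 rises in 235 tests. FABP1, the fatty acid carrier of liver cytosol, fell in all 7 at both of its probes, for FABP1_11582 from 728 to 3.99 CPM in mocetinostat and from 476 to 6.07 CPM in apicidin. SCP2_27826, for the peroxisomal sterol carrier and thiolase, fell in all 7 (-3.62 to -1.28), and the second SCP2 probe, SCP2_6152, in 5, with -0.48 in panobinostat and -0.54 in valproic acid. Of genes picked after their values were seen, the PPARA probe PPARA_17989 fell in apicidin, mocetinostat, scriptaid, tacedinaline and vorinostat, and the probe PPARA_5300 in mocetinostat, tacedinaline and vorinostat. PDK4, the kinase that turns down pyruvate dehydrogenase, rose in 5 chemicals, in scriptaid from 89.7 to 510 CPM, as did PPARD in 5.

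Other mitochondrial genes, from respiratory chain, citrate cycle and import lists, had few falls. Of 27 or 28 probes tested per chemical, 0 to 3 fell and 1 to 5 rose, 7 falls and 21 rises in 195 tests. The falls were 3.59% of tests, below the range of all probes, and the rises 10.8%, within it, and their median log2 change lay between -0.18 and 0.27. Hepatocyte markers had lower medians than the members in these 7 chemicals (-4.25 to -1.21 against -1.25 to -0.12). Of 15 probes, 12 to 15 fell in each of the 7 chemicals (6.22% to 24.9% of all probes) and none in trichostatin A (0.0154%). Their summed level at C1 was between 38635 and 73272 CPM over the libraries of these 7 chemicals, and at C5 it was 3263 to 4628 CPM in tacedinaline, 3623 to 7055 in vorinostat and 22700.3 to 30306 in panobinostat. The ratio of the mean sums, C5 over C1, was between 0.0837 (tacedinaline) and 0.531 (panobinostat), against 0.378 (mocetinostat) to 0.894 (valproic acid) for the summed members.

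Markers of biliary or progenitor-like cells rose in 1 to 3 of 4 probes per chemical and none fell. Over all probes, 4.84% to 22.7% rose and 6.22% to 24.9% fell in these chemicals. With 4 probes per chemical, 1 rise is not set apart from these shares. At C5 the summed levels of these markers were 1.10 to 2.41 times those at C1. They ran from 63.7 to 161 CPM at C1 and from 79.1 to 225 CPM at C5. Mesenchymal markers had 2 falls each and 0 to 2 rises in 4 to 6 probes, with summed levels of 65.2 to 112 CPM at C1 and 50.8 to 90.8 CPM at C5. The part of these marker changes in the falls of fatty acid oxidation genes was not tested. In bulk lysates, fewer cells of a type and less RNA per cell cannot be told apart.

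**Figure D5:**
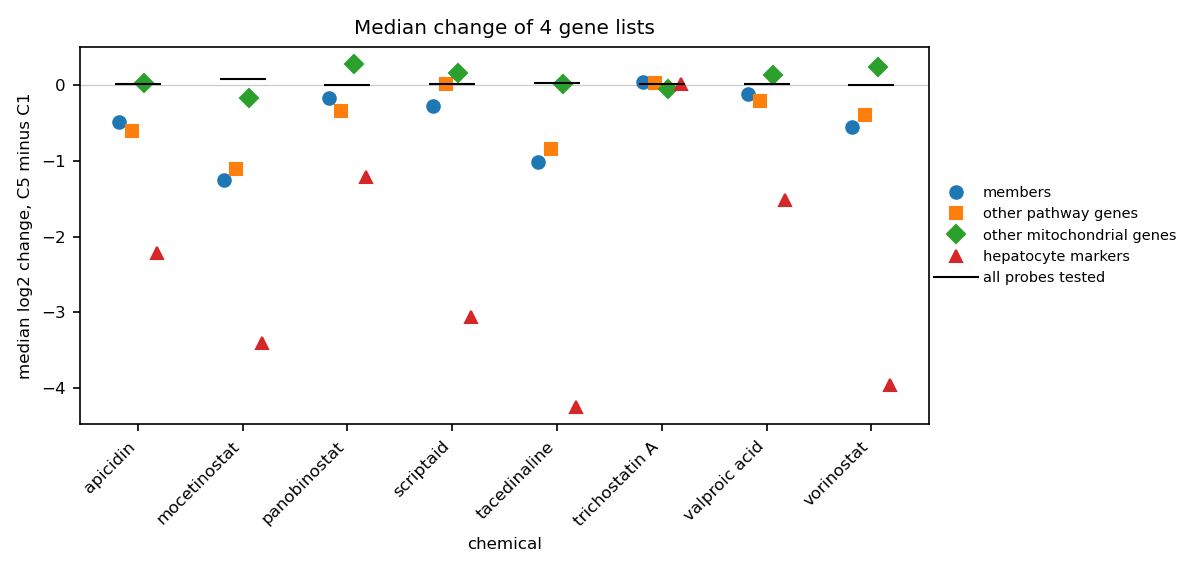
Median log2 change from C1 to C5 (vertical axis) of the members, the other pathway genes, the other mitochondrial genes, the hepatocyte markers (coloured symbols) and all probes tested (black lines) in each chemical (horizontal axis). Hepatocyte markers are lowest in 7 chemicals, the members reach -1.25 in mocetinostat, and the other mitochondrial genes stay between -0.18 and 0.27 outside trichostatin A.

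Trichostatin A rests on a C1 group with a library that departed from its mates. EHHADH held 491, 434 and 68.0 CPM in its C1 libraries, the low value being replicate 3, and 425, 331 and 357 CPM at C5. PPARGC1A held 104, 134 and 312 CPM at C1, again with replicate 3 apart, and 106, 109.9 and 93.5 CPM at C5. The summed hepatocyte markers were 13788 CPM in the lowest C1 library and up to 59540.5 in the others. Without that library no member was called in trichostatin A either, and the median log2 change of the members went from 0.04 to -0.22. With replicate 3 left out of all trichostatin A groups, ACAA2 (log2 change -1.21), ACSL1 (-1.03) and BDH1 were called falling, BDH1 with 16 and 14 counts at C1 and 0 in both libraries at C5.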

How the data were processed

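TempO-Seq counts were analysed for 118 libraries. Per the labels, the submitters' processing notes name bcl2fastq 2.20.422, fastp 0.23.2, STAR 2.7.10b and DESeq2 1.38.0, and the genome build is not given in the sources used here. The deposited table held raw counts per probe made by the authors, and 1 of its 22069 rows, SEC13, was left out because 88 libraries had no value. All columns were matched to samples by their labels (0 columns of no sample). No 2 replicates agreed within sampling noise.

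Counts were scaled by TMM and fitted per chemical with edgeR 4.0.16 in R 4.3.3 (filterByExpr, glmQLFit, glmQLFTest), with C2 to C5 each against C1 and C5 against C4, and for differences between chemicals in 1 model of all libraries. Calls needed an adjusted p below 0.05 and a fold of 1.5. The script was tested on simulated data. Tables and plots used python 3.11.15, pandas 2.3.3, numpy 2.4.6 and matplotlib 3.10.9. Alternatives were DESeq2 1.42.0, its size factors, no filter, a replicate block and leaving out each replicate, and the C1 and C5 libraries alone and trichostatin A without 1 library were added after seeing the data. So was the comparison of C5 with C4.

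Replicate numbers mark HepaRG batches per the labels, so they pair the samples. Deviations from group means correlated with a median r of 0.0230 in 232 same-number pairs and -0.0109 in 464 others. The main fits had no batch term. Their p-values measure the spread between the libraries of a group, each from a different batch.

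Members and lists were chosen with earlier results of these data known. Values per library are given for CPT1A, PPARGC1A and, per role, the probe called at C5 in the most chemicals (ties by median absolute change), in the chemical with its largest called change. Values in other chemicals, and ACSL3 and HADHB, were added after they were seen. Of the other pathway genes, the 4 called in the most chemicals by the same rule were to be named, and 1 of them is not reported here. Promoters came from RefSeq (GRCh38.p14), in which all 36 symbols matched a gene.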

Additional observations from a re-analysis of the deposited data

Results flagged for a closer look

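Over all probes tested, 30.3% had a change from C1 to C5 that differed between the 8 chemicals (edgeR F test, adjusted p below 0.05). Of the 36 member probes tested, 24 did. A difference between chemicals in the same contrast is what singled these out. ACSL3 was among them (edgeR adjusted p = 2.74e-06), with rises in 5 chemicals and changes between -0.41 and 0.05 in panobinostat, trichostatin A and valproic acid. PPARGC1A was another (edgeR adjusted p = 1.16e-11), with falls in mocetinostat, scriptaid and tacedinaline and changes of 0.47 to 0.56 in apicidin, panobinostat and valproic acid. The concentration ranges differed between chemicals, so chemical and concentration cannot be told apart, nor can chemical and plate for chemicals on different plates.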

How the results depend on the processing

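With a replicate block for the HepaRG batch, the falling members at C5 numbered 16 in apicidin, 22 in mocetinostat, 7 in panobinostat, 13 in scriptaid, 24 in tacedinaline, 0 in trichostatin A, 5 in valproic acid and 16 in vorinostat, and 23 members differed between chemicals. Under this block all 51 called changes of the genes given per library kept their direction and call. Without the filter on low counts, 1 member was called falling in trichostatin A (PPARGC1A, log2 change -0.82, edgeR adjusted p = 0.0229). With the C1 and C5 libraries alone, 1 member was called rising in panobinostat. The causes were not tested.

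Leaving out each replicate in turn gave 10 to 13 falling members in apicidin, 15 to 22 in mocetinostat, 3 to 7 in panobinostat, 7 to 11 in scriptaid, 19 to 21 in tacedinaline, 0 to 3 in trichostatin A, 3 to 5 in valproic acid and 15 to 17 in vorinostat. Rising members ranged from 1 to 2 in apicidin, 0 to 1 in mocetinostat, 1 to 4 in scriptaid, 1 to 2 in tacedinaline, 0 to 1 in valproic acid and 3 to 4 in vorinostat, with 0 in panobinostat and trichostatin A. Between 16 and 23 members differed between chemicals. Of 408 repeats of 51 named changes, 392 kept direction and call, 16 kept direction but lost the call (15 of them with a replicate left out) and 0 reversed. Low counts limit ACADS, ACOT1, ACOT2, ACOT12, BDH1 and HADH, and vorinostat C5 had the shallowest libraries.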
